A study of Mus musculus with 21 samples.

Results

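LB31 is a pre-B acute lymphoblastic leukaemia line that arose in a Blnk knockout mouse, and the arrays described here ask what a loss-of-function mutant of the missing adaptor, named YF, does to its transcripts. The members were chosen by their titles: 3 arrays of LB31 cells transduced with a pMY retroviral vector carrying Blnk YF cDNA and 3 arrays of LB31 cells transduced with the empty pMY vector, 6 of the 21 arrays of the series. The 3 arrays of LB31 cells given Blnk cDNA in the same vector were used for comparison. All 9 share the Blnk knockout origin, the vector backbone and the medium, which held 10% serum and 5 ng/ml of interleukin 7, the cytokine that sustains pre-B cells. Transcripts were measured on Affymetrix mouse genome arrays from 100 ng of total RNA. The line is 1 leukaemia, and which tyrosines YF changes, whether the 3 arrays of a group came from separate cultures or transductions, and how much protein the vectors gave were not stated in the labels. The p-values therefore reflect the spread among these arrays alone, and that spread may be technical.

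BLNK, also called SLP-65, is an adaptor of the pre-B cell receptor and the B cell receptor. When the receptor is engaged the kinase SYK phosphorylates tyrosines of BLNK, and these recruit BTK, phospholipase C gamma 2, VAV and GRB2, which carry the signal to calcium, protein kinase C and the MAP kinases. In pre-B cells this signal ends cycling and starts light chain rearrangement, and loss of Blnk in mice blocks pre-B cells and allows pre-B leukaemia. In the usual notation YF stands for tyrosine replaced by phenylalanine, a residue that cannot be phosphorylated.

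Levels below are log2 of the array signal plus 4 after quantile normalisation of the 9 LB31 arrays, and differences are log2 values ± SE from limma, with n = 3 arrays per group. A gene was called where limma's adjusted p, two-sided and adjusted by Benjamini-Hochberg over all 13034 genes tested, was under 0.05. The labels were first held against cell markers. Of 9 pre-B markers 8 were on the array and 7 passed the filter on low signal, with Rag1 under it. Vpreb1, part of the surrogate light chain of the pre-B cell receptor, and Cd79b, its signalling subunit, stood at 13.07 and 11.65 in empty-vector cells. The mean over the 8 markers was 9.43 to 9.60 on empty-vector arrays and 9.50 to 9.56 on YF arrays, and none was called. The mean over 5 neutrophil markers was 3.19 to 3.69 with the empty vector and 2.67 to 3.03 with YF, and that over 5 T and NK cell markers was 3.10 to 3.47 and 3.42 to 3.83, all under the filter level of 3.87. Monocyte and macrophage markers (4.30 to 4.93 and 4.58 to 4.78), erythroid, plasma cell and megakaryocyte markers had no called member either, and the part of any marker in the results below was not tested. RNA of a bulk culture cannot tell apart fewer cells of a type and less RNA per cell.

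The Blnk probe set does not check the transduction. On the 3 empty-vector arrays it read 9.63, 9.64 and 9.66, on the YF arrays 9.30, 9.49 and 9.37, and on the BLNK arrays 8.47, 8.45 and 8.56. The signal was thus lowest in the cells given Blnk cDNA, and the YF arrays lay below the empty-vector arrays without overlap. The difference between YF and empty vector was -0.25 ± 0.06 and was not called (limma adjusted p = 0.0770). In Blnk knockout marrow of the same series the probe set read 12.37 against 12.44 in wild-type marrow, with all 21 arrays normalised together. Its position with respect to the deletion and to the cDNA is unknown here, so it checks neither, and every statement on YF or BLNK cells rests on the labels. Cebpb, the other gene named in the series title, was not called (-0.13 ± 0.08, limma adjusted p = 0.437), and its other probe set was not called either (0.36 ± 0.32, adjusted p = 0.663 over all probe sets). With all 21 arrays normalised together the probe set that represents Cebpb stood at 10.22 ± 0.10 (SD, n = 3) with the empty vector, 10.09 ± 0.16 with YF and 10.11 ± 0.05 with BLNK. These levels were as high as in marrow of mice with a Cebpb LAP transgene (10.05 ± 0.15), and marrow of wild-type and Blnk knockout mice stood at 5.43 ± 0.10 and 5.02 ± 0.35. The labels name no transgene for LB31, and the other Cebpb probe set was lower in empty-vector cells (4.62) than in wild-type marrow (7.28).

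Few transcripts of LB31 cells were called with YF, and 1 of them stood far from the rest in adjusted p. Mycn, the MYC family transcription factor that drives growth in early B cells and in several childhood cancers, fell 3.16-fold on 1 of its 3 probe sets, while the other 2 differed by -0.02 and 0.04 and the mean of the 3 fell by 0.55 on the log2 scale. The next fitted changes were smaller. The calcium sensor of exocytosis Syt7 differed by -1.42 ± 0.27 and fell into the dim range. 1600014C10Rik, the mouse counterpart of human C19orf12, fell 2.00-fold, and the largest rise, of the histone deacetylase Hdac9, was 1.91-fold. The lymphotoxin gene Lta and Dntt, which encodes the terminal transferase that adds bases at V(D)J joints, fell modestly, and Tcf3, the E2A transcription factor of the B lineage, rose on 1 of its 3 probe sets. In all, 45 of 13034 genes were called (0.345%), 17 higher (0.130%) and 28 lower (0.215%) in YF cells. Of these 3 changed by at least 2-fold, 10 by at least 1.5-fold and 35 by less. At an unadjusted p under 0.05 there were 2001 genes. BLNK against empty vector, fitted in the same model, gave 2072 calls (15.9%), 957 higher (7.34%) and 1115 lower (8.55%). YF against BLNK gave 1174 (9.01%), 663 higher (5.09%) and 511 lower (3.92%).

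**Figure D1:**
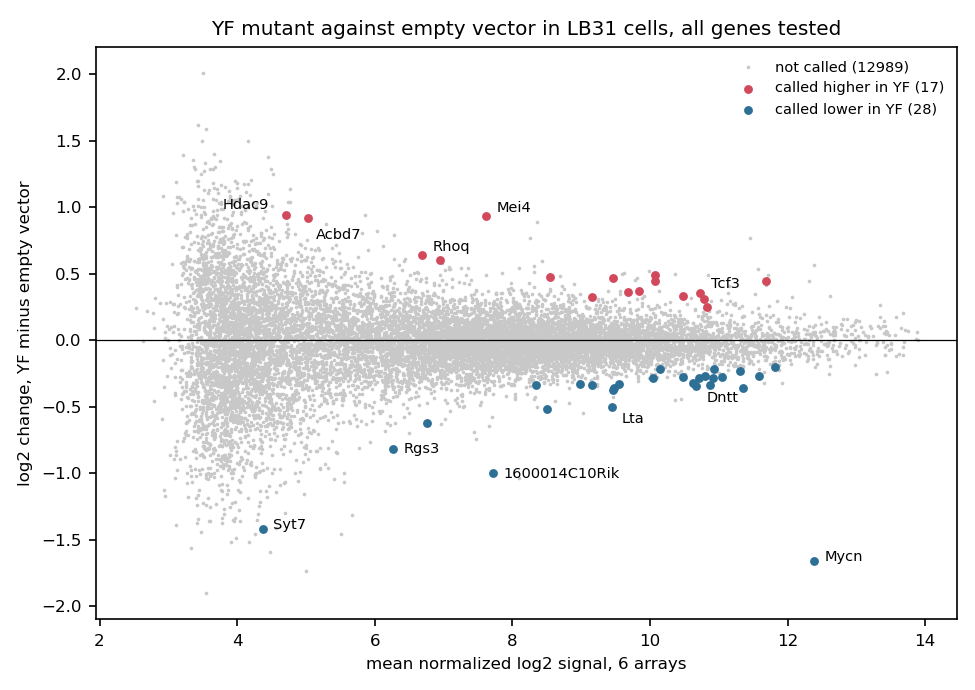
Log2 change between YF and empty-vector cells (vertical axis) against the mean normalised log2 signal of the 6 arrays (horizontal axis), 1 point per gene tested, with the 17 genes called higher in red and the 28 called lower in blue. Mycn, at -1.66 and at a high signal, has the largest change, and the other called genes lie between -1.42 (Syt7, at a dim signal) and 0.94.

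The plot of change against signal shows how these genes are spread. The called genes ran from a mean empty-vector level of 4.24 to one of 13.22, and the median change over all genes tested was -0.02. For each of the 45 the 3 YF values lay wholly above or wholly below the 3 empty-vector values. That order was common in this comparison: 968 genes tested (7.43%) had all 3 YF values above and 1441 (11.1%) had all 3 below. For 44 of the 45 both group means lay above the filter level, and the exception was Syt7.

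The number of calls rested on single arrays. Array 1 of the empty vector correlated over the genes tested with the YF arrays at r = 0.982 to 0.984, above its r of 0.977 and 0.980 with the other 2 empty-vector arrays. Its median deposited signal was 19.5 against 15.9 and 15.5 for the other empty-vector arrays, 17.8 to 18.8 for YF and 15.3 to 17.4 for BLNK. The median SD of a gene was 0.158 among empty-vector, 0.110 among YF and 0.119 among BLNK arrays. Without empty-vector array 1, 1115 genes (8.68% of 12844 tested) were called, 530 higher and 585 lower, and all 45 were among them. Without empty-vector array 2 there were 15 calls, without array 3 there were 2, without YF array 1 there were 4, and without YF array 2 or 3 there was 1. Mycn was called in each of these, and in the last 2 no other gene was. The part of array brightness in these counts was not tested, but the scale matters to direction: with the signals as deposited the median difference of YF over empty vector was 0.32, and 576 of 597 calls were higher, while with each array centred on its median it was 0.22, with 1317 of 1345 calls higher. Directions below are relative to the quantile-normalised distribution.

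**Figure D2:**
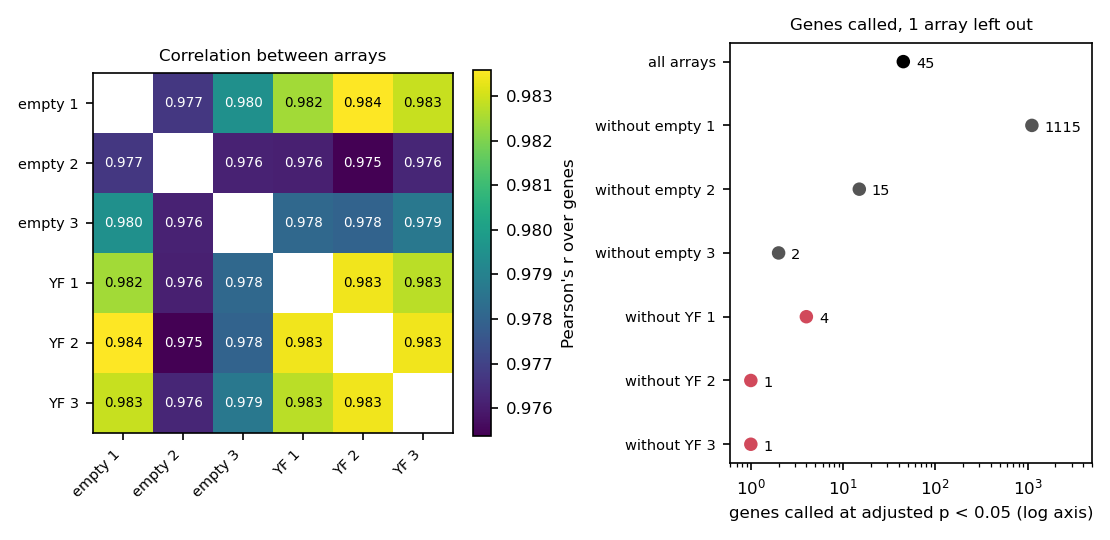
Left, Pearson's r over genes tested between the 6 arrays, from 0.975 to 0.984. Right, the number of genes called for YF against empty vector (log axis) with all arrays and with each array left out, where empty-vector array 1 stands out: its omission raised the count from 45 to 1115, and omitting any other array lowered it to between 1 and 15.

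The grid of correlations and the counts beside it show both facts at once. The YF arrays resembled each other closely, at 0.983, and the empty-vector arrays spread more, at 0.976 to 0.980. GAPDH 3'/5' signal ratios, a measure of RNA integrity, were 0.717 ± 0.013 (SD, n = 3) for empty vector, 0.740 ± 0.005 for YF and 0.711 ± 0.019 for BLNK.

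Mycn, on the probe set that represents it, was the call that stayed with any array left out and with either other scaling. Its signal on the empty-vector arrays was 13.22, 13.23 and 13.22, on the YF arrays 11.46, 11.62 and 11.61, and on the BLNK arrays 10.94, 11.01 and 11.08. All YF arrays were low and close together, far below the empty-vector arrays and a little above the BLNK arrays, with no overlap among the 3 groups. YF differed from empty vector by -1.66 ± 0.05 (limma adjusted p = 3.53e-10), while the next smallest adjusted p of any gene was 0.0190. BLNK differed from empty vector by -2.21 ± 0.05 (adjusted p = 4.33e-12), and YF differed from BLNK by 0.55 ± 0.05 (adjusted p = 5.52e-06). The comparison of YF with empty vector shares its control arrays with that of BLNK and its YF arrays with the other. In deposited intensity units the same probe set read 9969, 7867 and 9011 with the empty vector, 3040, 3672 and 3448 with YF and 1823, 2303 and 2295 with BLNK, and the highest probe set of any empty-vector array read 16536. Mycn stayed called under all 17 alternatives tried, with a log2 change between -1.71 and -0.55 and limma adjusted p-values up to 0.00193. Each of these used the representing probe set, alone or within a mean, so they do not test the choice of probe set.

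The value of -0.55 came from averaging the gene's 3 probe sets, because the probe sets of Mycn disagreed. The brightest, 1425923_at, represents the gene here and gave the fall. The other 2 did not move: 1417155_at differed by -0.02 ± 0.06 (limma adjusted p = 0.938 over all probe sets) and 1425922_a_at by 0.04 ± 0.10 (adjusted p = 0.895). All 3 followed the cell source. With all 21 arrays normalised together 1417155_at stood at 9.55 ± 0.12 (SD, n = 3) in empty-vector and 9.53 ± 0.02 in YF cells and 4.26 ± 0.66 in wild-type marrow, and 1425922_a_at at 7.30 ± 0.10 and 7.34 ± 0.09 against 3.48 ± 0.28. On that scale 1425923_at stood at 13.02 ± 0.01 with the empty vector, 11.45 ± 0.09 with YF, 10.92 ± 0.06 with BLNK and 4.73 ± 0.77 in wild-type marrow. The parts of the Mycn transcript that the 3 probe sets read are unknown here, and the fall is that of 1 probe set of 3.

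**Figure D3:**
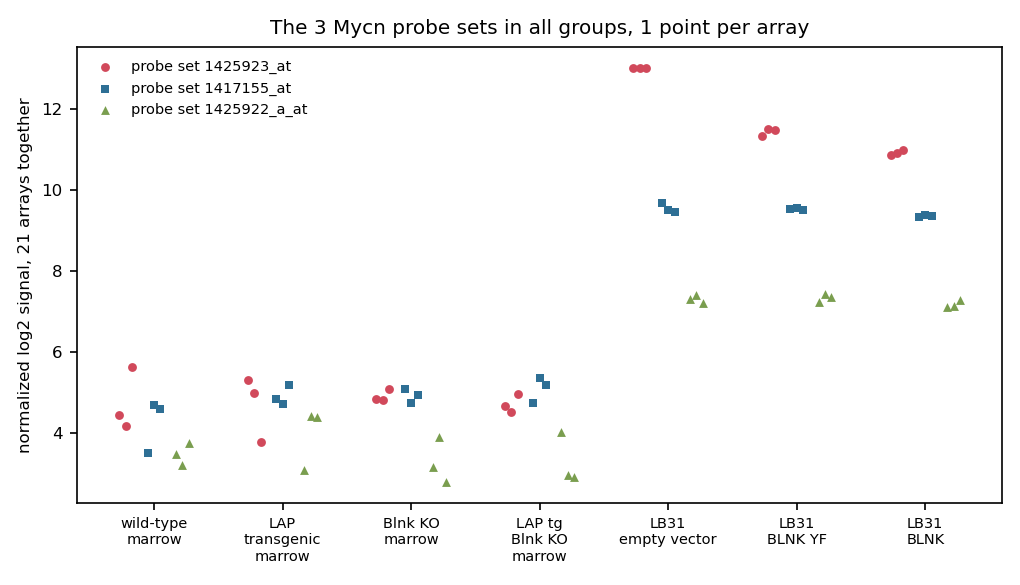
Normalised log2 signal of the 3 Mycn probe sets on each of the 21 arrays (1 point per array, 3 arrays per group, all arrays normalised together). All 3 are low in marrow and high in LB31 cells, and 1425923_at alone steps down from empty vector (13.02) to YF (11.45) and BLNK (10.92).

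The plot of Mycn probe sets over all groups shows the disagreement. The 250 bases before the RefSeq start of Mycn are shown because this gene carries the largest change, together with those of Dntt, a called gene of the B lineage, and Mei4, a called rise. Each is from RefSeq, build GRCm38.p6, 5′ to 3′ on the gene's strand. Capitals mark matches on either strand to the E2F motif TTTNNCGC (Mycn) and to the E-box CAGGTG, read here as CACCTG, which E2A proteins bind (Mei4). The regions are chr12:12941837-12942086 on the minus strand for Mycn (gene at chr12:12936093-12941836), chr19:41029025-41029274 on the plus strand for Dntt and chr9:81863420-81863669 on the plus strand for Mei4, and none overlaps another annotated gene.
Mycn: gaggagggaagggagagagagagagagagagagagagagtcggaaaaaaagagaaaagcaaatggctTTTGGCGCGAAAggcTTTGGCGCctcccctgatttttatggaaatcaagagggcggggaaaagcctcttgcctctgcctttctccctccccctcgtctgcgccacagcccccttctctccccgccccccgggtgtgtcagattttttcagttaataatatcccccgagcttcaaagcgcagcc
Dntt: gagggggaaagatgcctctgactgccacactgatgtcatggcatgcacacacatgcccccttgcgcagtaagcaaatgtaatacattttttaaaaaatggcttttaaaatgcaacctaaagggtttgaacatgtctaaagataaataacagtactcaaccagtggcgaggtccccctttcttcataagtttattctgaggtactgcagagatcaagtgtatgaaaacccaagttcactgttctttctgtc
Mei4: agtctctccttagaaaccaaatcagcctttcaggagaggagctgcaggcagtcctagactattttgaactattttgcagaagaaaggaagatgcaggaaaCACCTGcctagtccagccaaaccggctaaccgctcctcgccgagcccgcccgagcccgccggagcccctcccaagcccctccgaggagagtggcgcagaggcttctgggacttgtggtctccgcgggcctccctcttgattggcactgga

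The Mycn window held 3 matches to TTTNNCGC, at -183 to -176, -179 to -172 and -168 to -161 from the start, of which the first and second overlap. Of 32851 RefSeq promoter windows of the table, 4.28% held this motif, 17.2% CAGGTG, 6.02% the MYC E-box CACGTG, 6.75% the AP-1 motif TGANTCA and 3.17% the forkhead motif GTAAACA. The Mei4 window held CAGGTG at -150 to -145, and the Dntt window held none of the 5. Among the called genes 15 of 17 higher and 22 of 28 lower had a window in the table. TTTNNCGC was in 0 of the 15 and 3 of the 22 (Mycn, Cntd1 and Ppil1), and CAGGTG in 2 of the 15 and 4 of the 22. CACGTG was in 1 of the 15 and 3 of the 22, TGANTCA in 1 and 2, and GTAAACA in 0 and 1. These matches describe letters in a window and no binding was measured.

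Lymphoid genes were among the called falls. Lta, the lymphotoxin cytokine of the TNF family, read 9.70, 9.69 and 9.70 with the empty vector, 9.20, 9.25 and 9.14 with YF and 7.51, 7.35 and 7.60 with BLNK. The YF values sat in a narrow step under the empty-vector values and far above the BLNK values. YF differed from empty vector by -0.50 ± 0.07 (limma adjusted p = 0.0190) and from BLNK by 1.71 ± 0.07 (adjusted p = 5.43e-09). Dntt read 10.89, 10.74 and 10.90 with the empty vector, 10.47, 10.49 and 10.54 with YF and 7.90, 8.0 and 7.92 with BLNK. Here too YF lay just below the empty vector, by -0.34 ± 0.05 (limma adjusted p = 0.0236), and the BLNK arrays were far lower, with YF above BLNK by 2.56 ± 0.05 (adjusted p = 7.70e-12). Both other probe sets of Dntt had negative differences, -0.27 and -0.46, and neither was called. Cd52, a small lipid-anchored antigen of lymphocytes named after its values were seen, fell by 0.22 (adjusted p = 0.0353), and YF differed from BLNK by 0.56 ± 0.04 (adjusted p = 6.97e-07).

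Selenop, Vim and Lxn were further falls with YF above BLNK. Selenop, the plasma selenium carrier, read 9.73, 9.60 and 9.66 with the empty vector, 9.36, 9.26 and 9.29 with YF and 8.18, 8.12 and 8.21 with BLNK. The YF arrays were below all empty-vector arrays (-0.36 ± 0.06, limma adjusted p = 0.0224) and above all BLNK arrays (1.13 ± 0.06, adjusted p = 4.35e-08). The intermediate filament Vim fell by 0.38 ± 0.06 (adjusted p = 0.0236), and a second Vim probe set was also called, at -0.50. Vim in YF cells was above BLNK cells by 0.44 ± 0.06 (adjusted p = 0.000399). Lxn, an inhibitor of carboxypeptidases, fell by 0.36 (adjusted p = 0.0236), with YF above BLNK by 0.66 ± 0.06 (adjusted p = 6.31e-06). Of called genes outside the naming rule and chosen after their values were seen, the galectin Lgals1 fell by 0.28 and Npc2, a lysosomal cholesterol carrier, by 0.20. The other Lgals1 probe set differed by -0.26 and was not called. Further Npc2 probe sets disagreed, at -0.10, 0.09 and 1.17, none called.

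**Figure D4:**
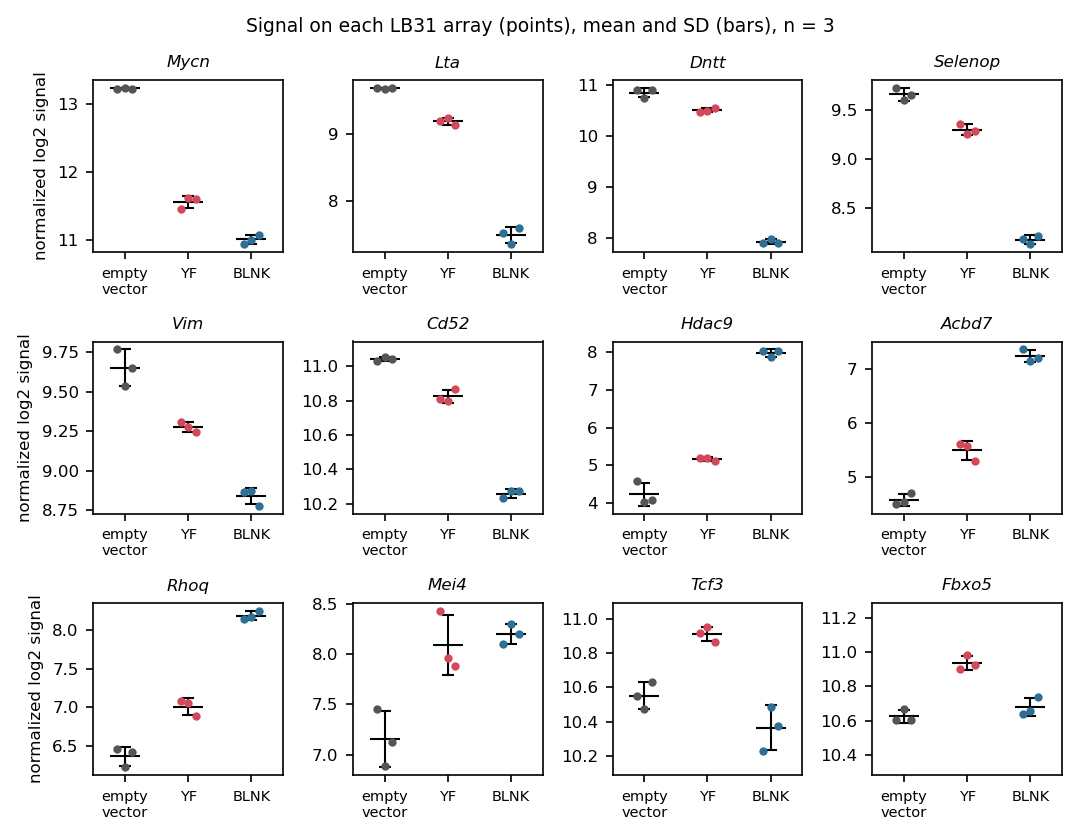
Normalised log2 signal of 12 called genes on each LB31 array (points), with the group mean and SD (bars, n = 3), each panel on its own axis of at least 1 log2 unit. Mycn, Lta, Dntt, Selenop, Vim and Cd52 step down and Hdac9, Acbd7 and Rhoq step up from empty vector to YF to BLNK, Mei4 is level between YF and BLNK, and Tcf3 and Fbxo5 are highest in YF.

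The panels of signal by array show 3 arrangements of the groups. The genes were chosen by their call against empty-vector arrays that BLNK is compared with as well. The arrangements are therefore a description and carry no test. In the first, YF lay between empty vector and BLNK and apart from both, as for the genes above and for the rises of Hdac9, Acbd7 and Rhoq. Hdac9, a class IIa deacetylase that works with MEF2 factors, read 4.58, 4.03 and 4.09 with the empty vector, 5.21, 5.20 and 5.11 with YF and 8.02, 7.86 and 8.04 with BLNK. YF was above the empty vector by 0.94 ± 0.16 (limma adjusted p = 0.0339), without overlap, and the BLNK arrays were far higher, with a difference of YF from BLNK of -2.80 ± 0.16 (adjusted p = 1.84e-07). The second Hdac9 probe set gave 0.82 ± 0.51 and was not called. Acbd7, an acyl-CoA binding protein, rose by 0.92 ± 0.15 (adjusted p = 0.0236), from 4.49, 4.53 and 4.69 to 5.62, 5.56 and 5.29, while BLNK arrays read 7.37, 7.14 and 7.21. Rhoq, a small GTPase, rose by 0.64 ± 0.09 (adjusted p = 0.0215), and YF differed from BLNK by -1.18 ± 0.09 (adjusted p = 2.94e-06). Laptm5, a lysosomal protein that lowers antigen receptors at the cell surface, rose by 0.34 ± 0.05 (adjusted p = 0.0203), with a difference from BLNK of -0.20 ± 0.05 (adjusted p = 0.0159).

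In the second arrangement YF and BLNK had no called difference. Mei4, a protein of meiotic DNA break formation, read 7.45, 6.89 and 7.13 with the empty vector, 8.43, 7.96 and 7.88 with YF and 8.10, 8.30 and 8.20 with BLNK. The YF and BLNK arrays overlapped, and both were above the empty vector. YF differed from empty vector by 0.93 ± 0.15 (limma adjusted p = 0.0236) and from BLNK by -0.11 ± 0.15 (adjusted p = 0.746). The atypical cell cycle repressor E2f8 rose by 0.47 ± 0.09 (adjusted p = 0.0445) and the splicing-associated Pnn by 0.45 ± 0.06 (adjusted p = 0.0190). They differed from BLNK by -0.04 ± 0.09 and 0.02 ± 0.06. The other E2f8 probe set differed from the empty vector by 0.09 and those of Pnn by 0.05 and 0.10, none called. The Pnn probe set at 0.10 was called lower with YF than with BLNK, by -0.28 (limma adjusted p = 0.0260 over all probe sets). Cip2a, an inhibitor of the phosphatase PP2A, rose by 0.33, with -0.10 ± 0.06 from BLNK. Among falls, Rars2, the mitochondrial arginyl-tRNA synthetase, fell by 0.52 ± 0.08 (adjusted p = 0.0224), and Rgs3, which speeds GTP hydrolysis by G protein alpha subunits, fell by 0.82 ± 0.15 (adjusted p = 0.0361). Both other Rgs3 probe sets that passed the filter had positive differences, 0.34 ± 0.31 and 0.25 ± 0.29, not called, and the mean of its probe sets differed by -0.07 (adjusted p = 0.892). The differences of Rars2 and Rgs3 from BLNK were 0.05 ± 0.08 and 0.19 ± 0.15, and an uncalled difference does not show that the levels were alike.

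The largest falls after Mycn belonged here as well. Syt7 read 5.11, 5.19 and 4.96 with the empty vector, 3.77, 3.36 and 3.87 with YF and 4.39, 4.26 and 4.14 with BLNK. The YF mean lay under the filter level of 3.87, so the fitted difference of -1.42 ± 0.27 (limma adjusted p = 0.0476) gives no exact fold. The other Syt7 probe set that passed the filter gave 0.59 ± 0.51 and was not called. 1600014C10Rik read 8.22, 8.20 and 8.22 with the empty vector and 7.54, 7.2 and 6.89 with YF, a difference of -1.0 ± 0.16 (adjusted p = 0.0236), and 2 other probe sets of it gave 0.02 each and were not called. Against BLNK, Syt7 differed by -0.60 ± 0.27 and 1600014C10Rik by -0.32 ± 0.16, neither called. Sec14l1, a protein with a lipid-transfer domain, fell by 0.62 ± 0.11 (adjusted p = 0.0361).

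In the third arrangement YF stood apart from both other groups. Tcf3 read 10.55, 10.48 and 10.63 with the empty vector, 10.92, 10.95 and 10.86 with YF and 10.23, 10.49 and 10.38 with BLNK. Every YF array was above every array of the other groups. YF was above the empty vector by 0.36 ± 0.06 (limma adjusted p = 0.0329) and above BLNK by 0.55 ± 0.06 (adjusted p = 6.21e-05), while BLNK against empty vector was -0.19 and not called (adjusted p = 0.0570). The other 2 Tcf3 probe sets differed from the empty vector by -0.08 ± 0.12 and 0.13 ± 0.13, neither called, and the mean of its probe sets by 0.14 (adjusted p = 0.440). Fbxo5, the EMI1 inhibitor of the anaphase-promoting complex, named after its values were seen, read 10.90, 10.98 and 10.92 with YF against 10.60, 10.67 and 10.60 with the empty vector and 10.64 to 10.74 with BLNK. It was above the empty vector by 0.31 ± 0.04 (adjusted p = 0.0203) and above BLNK by 0.26 ± 0.04 (adjusted p = 0.00156). The telomere protein Acd (0.47 ± 0.09 and 0.31 ± 0.09), the phosphatase 6 subunit Ankrd52 (0.60 ± 0.11 and 0.40 ± 0.11) and the ATP synthase subunit Atp5md (0.45 ± 0.08 and 0.32 ± 0.08) were likewise called higher than the empty vector and than BLNK. Prpsap1, which binds the enzyme of ribose phosphate activation, was lower than both, by -0.34 ± 0.05 and -0.20 ± 0.05.

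Of the remaining named genes, the mitochondrial import receptor Tomm70a rose by 0.49, the mitochondrial ribosomal protein Mrpl36 by 0.37 and Pcmtd1 by 0.36. Other Pcmtd1 probe sets that passed the filter differed by 0.29, 0.30, -0.11 and -0.01, none called. The glycolytic aldolase Aldoa fell by 0.33 ± 0.06 (limma adjusted p = 0.0370), the zinc finger gene Zfp407 by 0.34 and the proteasome assembly factor Psmg4 by 0.33. Aldoa has 4 other probe sets, at -0.29, -0.15, -0.07 and 0.06, none called. With the signals as deposited the differences of Aldoa, Dntt, Lxn, Prpsap1, Psmg4, Selenop, Vim and Zfp407 were slightly above 0, at 0.02 to 0.07. Over all 45 genes, 28 had 62 other probe sets, 52 of which passed the filter. Of these 52, 2 were called in the same direction (Vim and Atad3a), 0 in the opposite one, and 30 had the same sign. With the mean of a gene's probe sets that passed the filter, 14 of the 30 named called genes stayed called. For genes with no other such probe set, among them Lta, Selenop and Mei4, that mean is the same value. A call that stayed is therefore no check on them. Genes with several probe sets that did not stay called included Hdac9 (0.88), Tomm70a (0.22), E2f8 (0.28), Pnn (0.20), Laptm5 (0.09), Aldoa (-0.16), 1600014C10Rik (-0.32) and Syt7 (-0.42). Probe sets with the suffix _x_at, whose probes can bind other transcripts, represented 5 of the 45 (Aldoa, Atad3a, Cntd1, Laptm5 and Vim), or 11.1%, against 4.32% of genes tested.

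Pathway lists were described by counts. Of 32 lists with 422 genes tested, 5 genes were called (1.18%, against 0.345% of all genes tested): Mycn, Lta, Dntt and Aldoa lower and Tcf3 higher. They lay in 6 lists, and the other 26 lists had no call. At a share of 0.345% a list of this size seldom holds a call. A list without one therefore does not show that its pathway was unchanged. List medians ran from -0.35 (neutrophil genes, 7 tested) to 0.15 (plasma cell genes, 8 tested), against -0.02 for all genes.

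**Figure D5:**
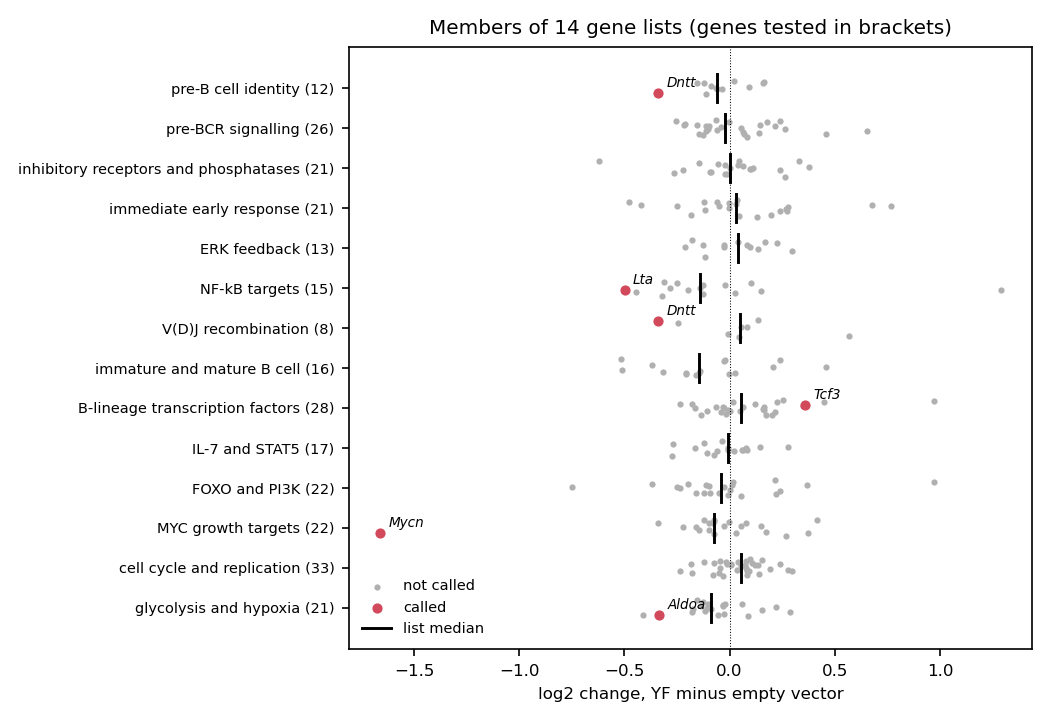
Log2 change between YF and empty vector for the members of 14 of the gene lists (1 point per gene tested, called genes in red, black bars at the list median, numbers of genes in brackets). The medians lie close to 0, between -0.14 and 0.06, and Mycn, at -1.66, has the largest change.

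The strip plot of list members shows the spread within each list. Of 26 genes of pre-B cell receptor signalling tested, none was called, the median was -0.02, the differences ran from -0.25 to 0.65, and 5 had an unadjusted p under 0.05. Without empty-vector array 1, 4 of the 26 were called (15.4%, against 8.68% of all genes): Blnk (-0.26), Cd79b (-0.19) and Plcg2 (-0.17) lower and the adaptor Grb2 (0.26) higher. With any other array left out none of the 26 was called. The receptor subunits Cd79a and Cd79b differed by -0.06 ± 0.05 and -0.15 ± 0.05, the kinases Syk and Btk by 0.00 ± 0.07 and -0.14 ± 0.06, and Plcg2 by -0.11 ± 0.06. Syk, Btk and Plcg2 are named as partners of BLNK. For Cd79a and Cd79b, BLNK differed from empty vector by -0.54 and -0.46, both called. Of 12 pre-B identity genes only Dntt was called, and Vpreb1, Igll1 and Cd24a differed by -0.06, -0.03 and 0.09. Among 21 inhibitory receptors and phosphatases there was no call (median 0.00), with Csk, which restrains SRC kinases, at 0.00 ± 0.05.

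Of the genes of 3 lists that respond to receptor signals, Lta alone was called with YF. Of 21 immediate early genes none was called (median 0.03), of 13 genes of ERK feedback none (median 0.04) and of 15 NF-kB targets only Lta (median -0.14). Egr1, Egr2 and the chemokine gene Ccl3 are named after their values were seen, for their size in BLNK cells. Egr1, a transcription factor induced by ERK, read 5.22, 4.99 and 4.33 with the empty vector, 5.59, 5.44 and 5.55 with YF and 8.07, 8.07 and 8.31 with BLNK. YF lay above the empty vector without overlap and far below BLNK: the difference from empty vector was 0.68 ± 0.19 and not called (limma adjusted p = 0.120), that from BLNK -2.63 and called. Egr2 differed by 0.77 ± 0.28 (adjusted p = 0.212) and Ccl3 by 1.29 ± 0.34 (adjusted p = 0.107), against 3.20 and 5.04 for BLNK over empty vector. Without empty-vector array 1, Egr1 (0.86 ± 0.18, adjusted p = 0.0111) and Ccl3 (0.73 ± 0.16, adjusted p = 0.0156) were called. Neither was called with any other array left out. Ccl3 was dim: without empty-vector array 1 its mean was 4.38 with the empty vector and 5.11 with YF. These lie near the filter level of 3.87, so the Ccl3 differences give no exact fold. The feedback phosphatases Dusp5 and Dusp6 differed by -0.18 and -0.12, and the NF-kB inhibitor Nfkbia by -0.13.

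Differentiation genes gave 1 call besides Dntt. Of 28 B-lineage transcription factors 1 rose (Tcf3, 3.57% of the list) and the median was 0.06. Ets1, Pou2af1 and Myb differed by 0.25 ± 0.07, 0.16 ± 0.04 and -0.14 ± 0.04, none called. Of 16 immature and mature B cell genes none was called (median -0.14), and of 8 V(D)J recombination genes only Dntt, with Hmgb2, a DNA-bending cofactor of the recombinase, at 0.57 ± 0.15. Of 4 light chain genes tested none was called. Without empty-vector array 1, 8 of the 28 transcription factors were higher and 1 lower (32.1%, against 8.68% of all genes). Among them were Fli1 (0.73), Mef2c (0.47) and Ets1 (0.35). Over all genes 4.13% were called higher and 4.55% lower there. The share was not particular to these factors, as 31.2% of 16 unfolded protein response genes and 45.5% of 11 MHC class I genes were called too. None of the 28 was called with any other array left out.

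With all arrays, growth and survival genes gave Mycn and Aldoa as calls. Of 22 MYC growth targets and partners Mycn alone was called (median -0.07). Myc itself read 11.64, 11.76 and 11.74 with the empty vector and 11.58, 11.59 and 11.61 with YF, a step of -0.12 ± 0.04 without overlap that was not called (limma adjusted p = 0.182). The nucleolar genes Ncl and Npm1 differed by 0.00 and 0.15, and Ldha by -0.03. Of 33 cell cycle genes (median 0.05), 17 interleukin 7 and STAT5 genes (median -0.01), 22 FOXO and PI3K genes (median -0.04) and 17 genes of the BCL2 family (median 0.06) none was called. In that order 12, 2, 9 and 1 of them had a limma unadjusted p under 0.05, against 2001 of all 13034 genes. Ccnd2 and Ccnd3, the D cyclins of pre-B cells, differed by -0.07 and -0.03, Pcna by -0.02, and Mcl1 by 0.14. Of 21 glycolysis and hypoxia genes only Aldoa was called (median -0.09). Without empty-vector array 1, 3 of the 22 MYC targets were higher and 6 lower (40.9%, against 8.68% of all genes), with Odc1, the first enzyme of polyamine synthesis, at 0.57 and the nucleolar methyltransferase Fbl at -0.36. That share was not particular to MYC targets. There 45.5% of 11 MHC class I, 42.9% of 14 adhesion and migration and 40% of 10 heat shock genes were called too. Without that array 5 cell cycle genes were higher and 2 lower (21.2%), 1 glycolysis and hypoxia gene was higher and 4 were lower (23.8%), and no gene of the BCL2 family was called. When any other array was left out, Mycn was the only call in the lists of this paragraph.

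None of the genes listed for other cell types was called with all arrays. Some of these lists were not dim. On empty-vector arrays the 4 erythroid genes tested averaged 7.32 to 7.45, the 8 plasma cell genes 7.03 to 7.23 and the 7 plasmacytoid dendritic cell genes 7.52 to 7.77. Without empty-vector array 1, Ctss (-0.30), Ly6d (-0.27), Xbp1 (-0.15) and Mzb1 (-0.12) of these lists were called lower. They were 1 of 12 monocyte and macrophage (8.33%), 1 of 6 plasmacytoid dendritic cell (16.7%) and 2 of 8 plasma cell genes (25%). Over all genes 8.68% were called there, 4.55% of them lower than the empty vector. Lyz2, a lysozyme of myeloid cells, was the brightest of the monocyte and macrophage markers at 7.41 in empty-vector cells, and differed by -0.43 ± 0.12 with YF (limma adjusted p = 0.124) and by -2.45 with BLNK. Of 12 monocyte and macrophage genes, 7 neutrophil genes and 6 T and NK cell genes tested none was called.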

How the data were processed

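The model used the 9 LB31 arrays of the 21 in the series. The authors deposited 1 linear intensity value per probe set and array, made with MAS5 per the submitters' processing notes, which give no version and no scaling target. Here log2(signal + 4) was quantile normalised over the 9 arrays, which removes any true difference in overall message between groups, and the pseudocount of 4 makes fold changes of dim genes too small. Probe sets had to exceed the 40th percentile of an array on at least 3 of the 9 arrays. Of 45101 probe sets 64 were controls. Platform annotation gave 34945 others 1 gene symbol, 932 several and 9160 none here, and Entrez IDs matched 34741 to RefSeq (GRCm38.p6), with 0 symbols changed. For each of 18193 genes the brightest probe set, by mean over the 21 arrays, was used.

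Groups came from the array titles. The model was limma 3.58.1 in R 4.3.3 (lmFit, eBayes with intensity trend) without covariates, and the procedure was tested on simulated data. Genes named are the 15 largest rises and falls among called genes whose groups did not overlap, called members of the lists, Blnk and Cebpb, and up to 3 uncalled members of a list with the highest signal, and others only where said. The members, lists and rules were chosen with earlier results of these data known. Alternatives were the scaling, pseudocount, filter, choice of probe sets, arrays in the model, intensity trend, a replicate block and leaving out each array. The number of arrays, 3 per group, limits the precision. Figures were drawn with matplotlib 3.10.9. Promoter windows are the upstream bases of RefSeq's table. The protein sequence of BLNK was not used here.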

Additional observations from a re-analysis of the deposited data

How the results depend on the processing

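The count for YF against empty vector, 45, was within 1.5 times of itself with a pseudocount of 1 (41) or 16 (61) and with every probe set on its own (67). It moved to 597 with signals as deposited, 1345 with median centring, 18 with no filter, 76 with a stricter filter (60th percentile), 26 with the mean of a gene's probe sets, 6 with only the 6 arrays compared and 1 with no intensity trend, and ranged from 1 to 1115 with 1 array left out. As deposited the calls were 576 higher and 21 lower. For BLNK against empty vector the count, 2072, moved to 505 as deposited, 3373 with every probe set and 1246 with no trend. With median centring its calls were 1500 higher and 310 lower, and with 1 array left out it ranged from 1480 to 2808. For YF against BLNK the count, 1174, moved to 553 as deposited, 678 with median centring, 1886 with every probe set, 1843 with only the 6 arrays and 680 with no trend, and ranged from 769 to 851 with 1 array left out. As deposited the log2 changes of 8 named falls turned positive: Dntt 0.0677, Aldoa 0.0672, Psmg4 0.0647, Prpsap1 0.0544, Lxn 0.0497, Zfp407 0.0448, Selenop 0.0405 and Vim 0.0230. The cause of these shifts was not tested. Replicate numbers did not pair the arrays: deviations of same-numbered arrays correlated at -0.04 to 0.02, and a replicate block gave 39, 2061 and 1152 calls. Of the 30 named called genes, 30 stayed called without empty-vector array 1, 11 without array 2 and 1 without array 3, with no trend, or without YF array 2 or 3, and that 1 was Mycn.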

Other observations

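Genes that differed by at least 2-fold between wild-type and Blnk knockout marrow, on arrays that the LB31 comparison did not use, were read in LB31 cells. Of 233 genes called higher in wild-type marrow, 177 were tested in LB31. Their median difference between YF and empty vector was 0.04, with 56.5% above 0, and 1 was called higher (Hdac9) and 0 lower. Of 305 genes called lower in wild-type marrow, 237 were tested, with a median of -0.06, 40.5% above 0, 1 called higher (Mei4) and 2 lower (Dntt and Lxn). Over all 12052 genes tested in both, the median was -0.02, with 45.3% above 0, 16 called higher and 28 called lower. For BLNK against empty vector, which shares the empty-vector arrays, the medians were 0.17 and -0.26 for these 2 sets, with 37 called higher (20.9%) and 17 lower (9.60%) in the first and 19 higher (8.02%) and 78 lower (32.9%) in the second, against 7.87% higher and 9.14% lower over all 12052 genes. These sets were chosen after earlier results were known and carry no test.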
